A study of Mus musculus with 24 samples.

Results

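The BCL2 family comprises the proteins that decide whether the outer mitochondrial membrane is breached during apoptosis. Its mRNAs were followed here through sorted mammary epithelium of mice with and without an activated PIK3CA transgene. The members were chosen by name: 10 genes, of which 9 had a probe set annotated to that gene symbol alone. These are the survival genes Bcl2, Bcl2l1 (encoding BCL-XL) and Mcl1, the pore-forming effector Bak1, and the BH3-only genes Bcl2l11 (BIM), Bbc3 (PUMA), Pmaip1 (NOXA), Bmf and Bad. Bax, the other effector listed, was not analysed here, since the annotation used names no probe set for it alone. Each measured member had 1 probe set, and the 9 stand among 19937 genes tested.

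Survival members of the family hold the effectors BAX and BAK in check. BH3-only proteins respond to stress or to loss of growth signals by binding the survival proteins or the effectors. In the mammary gland the family is known from involution, the removal of milk-producing cells by apoptosis after weaning. Phosphoinositide 3-kinase signalling is known to restrain it: AKT phosphorylates BAD, and forkhead (FOXO) factors, which AKT keeps out of the nucleus, can activate Bcl2l11 and other BH3-only genes.

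All mice had a mixed FVB/C57BL6 background, carried Lgr5-creERT2, a tamoxifen-dependent Cre recombinase under Lgr5 control, and were examined 4 weeks after tamoxifen. Mutant mice (Lgr5-creERT2/PIK3CA H1047R) also carried the PIK3CA H1047R transgene, which control mice lacked. Glands of 2 to 3 mice matched for estrus stage were pooled per genotype in each of 3 sortings, and cDNA amplified from 250 sorted cells was hybridised to each array. The 8 groups of 3 arrays were mutant and control luminal Sca1-positive, luminal Sca1-negative, basal GFP-positive and basal GFP-negative cells, all CD45-negative, with CD24 high in luminal and low in basal cells. GFP marked cells that expressed Lgr5, the transgene or both. Mutant luminal cells were sorted as GFP-positive and control luminal cells as GFP-negative, so that genotype and GFP state cannot be told apart in luminal cells. GFP-positive basal cells were thus marked by Lgr5, the transgene or both in mutant mice, and by Lgr5 in control mice.

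The sorted fractions carried the markers of their lineage. The 6 basal markers averaged 10.75 to 11.38 on the log2 scale over the basal arrays and 5.23 to 7.43 over the luminal arrays, and the 7 measured luminal markers averaged 9.00 to 9.82 in luminal and 6.54 to 7.39 in basal arrays. Leukocyte markers (7 measured) averaged 4.18 to 4.68 and endothelial markers (4) 3.77 to 4.44, with a background level of 4.10, which is the 90th percentile of olfactory receptor genes. Within the leukocyte list the macrophage marker Cd68 stood higher, at group means of 6.19 to 8.27. Fibroblast markers (5) averaged 4.62 to 6.03, with Dcn, the decorin gene, at group means of 6.72 to 11.53. Pik3ca averaged 8.07 ± 0.31 in the mutant group of basal GFP-positive arrays and 6.98 ± 0.27 in its control, and Lgr5 6.30 ± 0.90 in mutant and 9.47 ± 0.46 in control (SD, n = 3 each). Control basal GFP-positive arrays had the lowest estimated weight of the 8 groups (0.590, against 1.45 for the mutant ones) and the narrowest spread of values (SD 1.86, against 1.97). The number of arrays limits precision. In sorted bulk samples, fewer cells of a type and less mRNA per cell cannot be told apart.

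All 9 members lay above the background level on all 24 arrays. Over the 8 groups, 4 of 9 varied by limma's moderated F test at a Benjamini-Hochberg adjusted p under 0.05, where 25.4% of all genes did. These were Mcl1 (adjusted p = 0.00241), Bcl2 (0.00328), Bcl2l1 (0.00758) and Bcl2l11 (0.0217). Bbc3 (0.155), Bak1 (0.161), Bad (0.175), Pmaip1 (0.215) and Bmf (0.260) did not pass. Among survival genes, group means spanned 1.71 for Bcl2, 1.55 for Bcl2l1 and 0.95 for Mcl1 in log2 units, with pooled SDs within groups of 0.42, 0.41 and 0.23. Among BH3-only genes the span was 1.67 for Bcl2l11 (SD 0.54), 1.02 for Pmaip1 (SD 0.45), 0.73 for Bad (SD 0.29), 0.65 for Bmf (SD 0.26) and 0.42 for Bbc3 (SD 0.15). Bak1 spanned 2.21 with an SD of 0.86.

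**Figure D1:**
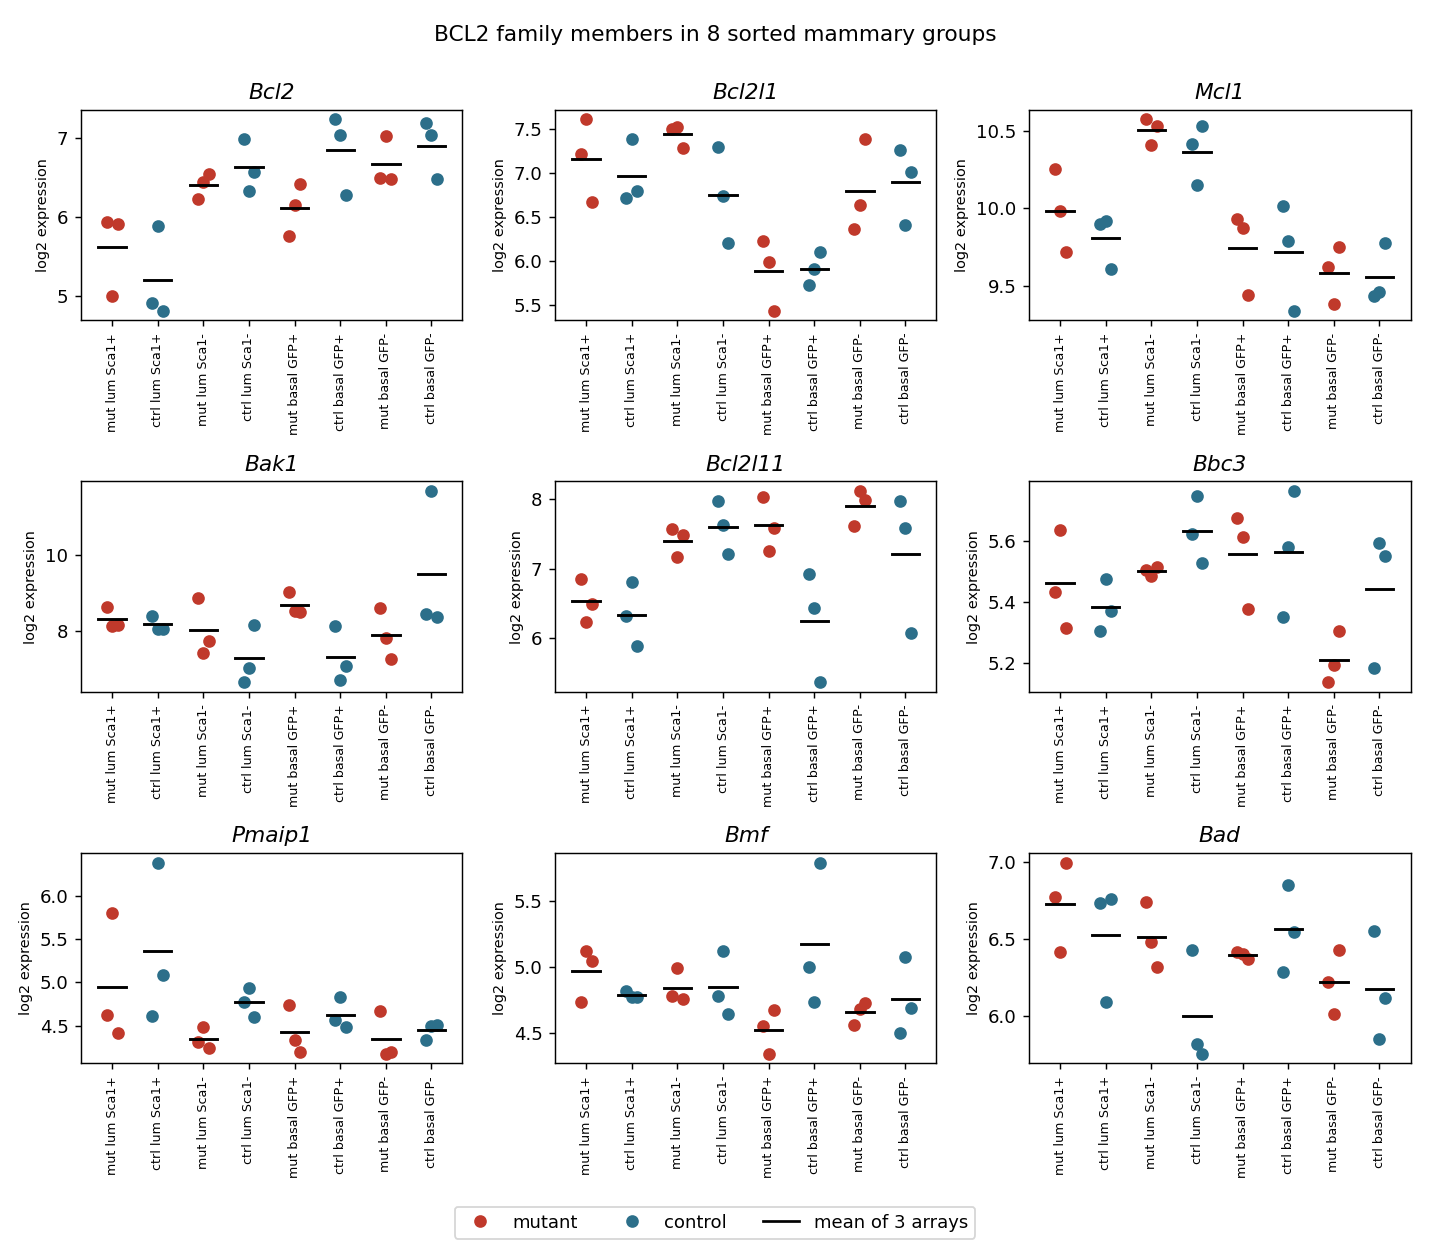
Log2 expression (y axis, own scale per gene) of the 9 measured members in the 8 sorted groups (x axis), with a point for each array and a black line for the mean of 3. Bcl2 has its lowest means in the luminal Sca1-positive groups, Mcl1 its highest in the luminal Sca1-negative groups and Bcl2l1 its lowest in the basal GFP-positive groups; 1 control basal GFP-negative array stands at 11.67 for Bak1.

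The survival genes differed in their order over the groups. Bcl2, whose product acts at mitochondria and the endoplasmic reticulum, averaged 5.61 ± 0.54 in mutant and 5.20 ± 0.59 in control luminal Sca1-positive cells (SD, n = 3 each), its lowest means, and 6.11 to 6.91 in the other 6 groups. Mcl1, which encodes a short-lived survival protein, averaged 10.51 ± 0.09 and 10.37 ± 0.20 in mutant and control luminal Sca1-negative cells, its highest means, and 9.56 to 9.99 elsewhere. Bcl2l1 averaged 5.88 ± 0.41 and 5.91 ± 0.19 in mutant and control basal GFP-positive cells, its lowest means, and 6.75 to 7.44 elsewhere. When each gene's groups were ordered by their means, the arrays of all 7 neighbouring pairs overlapped, except for Bcl2l1, where 6 of 7 did. The exception was the step of 0.83 between control luminal Sca1-negative and control basal GFP-positive cells.

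**Figure D2:**
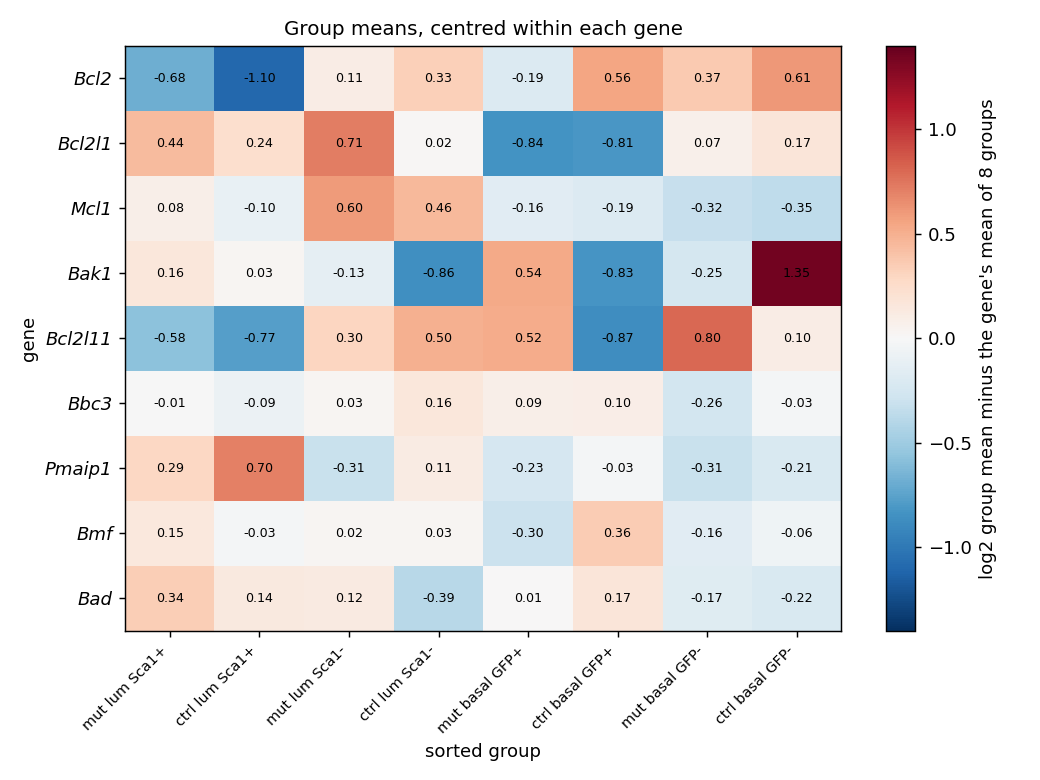
Group means of each member (rows) in the 8 sorted groups (columns), minus the mean of the 8 groups for that gene, in log2 units and printed in each cell. Bcl2 and Bcl2l11 are both below their own mean in the luminal Sca1-positive groups, and Bcl2l1 stands at -0.84 and -0.81 in mutant and control basal GFP-positive cells.

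In basal GFP-positive cells, mutant and control differed in 2 of 9 members: Bcl2l11 rose and Bmf fell. Of all genes 12.6% were called there, 4.74% higher and 7.81% lower. The median difference was -0.03 over the members and -0.10 over all genes. The arrays of mutant and control did not overlap for 3 of 9 members and for 35.4% of all genes.

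BIM, the product of Bcl2l11, can bind all the main survival proteins. Bcl2l11 stood at 8.03, 7.25 and 7.59 in mutant arrays, against 6.92, 6.43 and 5.36 in control arrays. Every mutant array lay above every control array, and control replicate 3 was far below the rest. The difference was 1.38 ± 0.42 (standard error), or 2.60-fold, with an adjusted p of 0.0421 by limma. BMF is a BH3-only protein held by a dynein light chain when inactive. Bmf stood at 4.56, 4.34 and 4.67 in mutant arrays, against 5.00, 4.73 and 5.79 in control arrays. The groups did not overlap, and control replicate 3 was the highest. The difference was -0.65 ± 0.21, a ratio of 0.636, with an adjusted p of 0.0464. Bmf lay near the background level of 4.10. Dim genes, those above that level on fewer than 3 arrays, averaged 3.73 in the control and 3.61 in the mutant arrays. The part of this in the Bmf difference was not tested.

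Without control replicate 3, Bcl2l11 differed by 0.94 (adjusted p = 0.185) and Bmf by -0.34 (adjusted p = 0.216). Neither passed without any 1 of the 3 mutant arrays (adjusted p 0.0620 to 0.138 for Bcl2l11 and 0.0680 to 0.142 for Bmf), and Bmf did not pass without control replicate 1 (0.0621). Nor did either pass after quantile normalization (0.129 and 0.108) or in a fit of the compared groups alone (0.178 and 0.243). With a replicate block Bmf did not pass either. Against control basal GFP-negative cells, the same mutant arrays differed by 0.41 ± 0.42 for Bcl2l11 (adjusted p = 0.676) and -0.23 ± 0.21 for Bmf (adjusted p = 0.620). In that comparison 0 of 9 members passed by limma, 2 with an unadjusted p under 0.05, where 3.22% of all genes were called. Fibroblast markers (5) averaged 5.80 to 6.03 in the mutant arrays of this fraction and 4.98 to 5.16 in the control arrays. Dcn made most of that gap (11.11 in mutant and 6.80 in control) and Col1a2 was also called higher (6.06 and 5.59), while Col1a1 (5.11 and 5.39), Pdgfra (4.03 and 4.20) and Lum (3.39 and 3.38) were not, and the list's median difference was 0.01. Luminal markers averaged 6.97 to 7.33 in mutant and 6.54 to 6.81 in control. Of these 7 only Elf5, a luminal progenitor factor, was called (7.36 in mutant and 4.14 in control). Krt8 (10.998 and 10.655), Krt18 (10.18 and 9.63), Kit (4.58 and 4.36) and Krt19 (6.48 and 6.40) had higher means in mutant without being called. Esr1 (4.92 and 5.37) and Pgr (5.51 and 6.04) had lower means and were not called either. The median difference of the luminal list was 0.22, against -0.10 for all genes. The part of these markers in the 2 differences was not tested.

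Promoter sequences are shown for the 2 genes called between mutant and control and for Bcl2, the survival gene that spanned the widest range. Each is the 250 bases before a RefSeq transcript start in build GRCm38.p6, 5′ to 3′ on the strand of the gene. Capitals mark the forkhead motif GTAAACA, searched on both strands. The windows are chr2:128125788-128126037, plus strand, for Bcl2l11, chr2:118549687-118549936, minus strand, for Bmf and chr1:106714291-106714540, minus strand, for Bcl2.
Bcl2l11: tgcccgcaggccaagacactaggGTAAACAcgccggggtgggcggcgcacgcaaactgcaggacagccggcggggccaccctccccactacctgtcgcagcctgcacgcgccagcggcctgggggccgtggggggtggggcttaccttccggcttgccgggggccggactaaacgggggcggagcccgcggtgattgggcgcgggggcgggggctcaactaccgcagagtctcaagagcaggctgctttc
Bmf: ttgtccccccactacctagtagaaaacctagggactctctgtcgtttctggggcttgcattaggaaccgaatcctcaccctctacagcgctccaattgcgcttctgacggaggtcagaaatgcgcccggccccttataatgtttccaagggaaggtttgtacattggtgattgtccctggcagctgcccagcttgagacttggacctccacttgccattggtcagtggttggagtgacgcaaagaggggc
Bcl2: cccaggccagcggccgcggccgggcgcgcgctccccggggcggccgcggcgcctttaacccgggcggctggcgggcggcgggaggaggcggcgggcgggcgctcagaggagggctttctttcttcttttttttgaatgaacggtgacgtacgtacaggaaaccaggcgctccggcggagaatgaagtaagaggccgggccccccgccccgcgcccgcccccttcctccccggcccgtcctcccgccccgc
The Bcl2l11 window holds a match that begins 227 bases before the start, and these letters are in neither other window shown. Of 17 windows scanned at 9 member genes, Bax included and Pmaip1 not scanned, 2 held the motif, the other at Bbc3. Over all genes 3.17% of 32851 windows did. The STAT motif TTCNNNGAA, on either strand, was in 0 of the 17 windows and in 7.02% of all.

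Bak1 and Bcl2 showed the widest differences among the members that were not called in basal GFP-positive cells. Bak1, which encodes the effector resident in the mitochondrial outer membrane, stood at 9.03, 8.52 and 8.49 in mutant arrays, against 8.14, 6.73 and 7.09 in control arrays. The groups did not overlap (1.37 ± 0.67, adjusted p = 0.169). Bcl2 stood at 5.75, 6.15 and 6.42 in mutant arrays, against 7.24, 7.04 and 6.28 in control arrays, and the groups overlapped (-0.75 ± 0.32, adjusted p = 0.127). For the other survival genes the difference was 0.03 in Mcl1 (95% interval -0.35 to 0.41) and -0.03 in Bcl2l1 (-0.70 to 0.64). For the other BH3-only genes it was -0.01 in Bbc3 (-0.26 to 0.24), -0.17 in Bad (-0.65 to 0.31) and -0.20 in Pmaip1 (-0.95 to 0.54).

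In basal GFP-negative cells 0 of 9 members passed between mutant and control by limma, 1 with an unadjusted p under 0.05, where 0.0602% of all genes were called. That gene was Bak1, at 8.61, 7.83 and 7.25 in mutant arrays, against 8.46, 11.67 and 8.37 in control arrays (-1.60 ± 0.67, adjusted p = 0.755). Control replicate 2 stood far above all others. Bcl2l11 stood at 7.61, 8.12 and 7.99 in mutant arrays, against 7.98, 7.58 and 6.07 in control arrays, with overlap (0.70 ± 0.42, adjusted p = 0.839). Its mutant effects in the GFP-positive and GFP-negative basal fractions differed by 0.69 ± 0.60, adjusted p = 0.630.

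In luminal Sca1-negative cells 0 of 9 members passed by limma, 2 with an unadjusted p under 0.05, where 0.727% of all genes were called. Bcl2l1 stood at 7.51, 7.53 and 7.29 in mutant arrays, against 7.30, 6.74 and 6.20 in control arrays (0.69 ± 0.32, adjusted p = 0.434). Bad, whose product is held by 14-3-3 proteins when phosphorylated, stood at 6.74, 6.48 and 6.31 in mutant arrays, against 6.43, 5.81 and 5.75 in control arrays (0.51 ± 0.23, adjusted p = 0.414). The groups overlapped for both genes. Basal markers averaged 6.76 to 7.43 in mutant and 5.32 to 5.52 in control luminal Sca1-negative arrays, and Cd68 8.27 in mutant and 6.76 in control ones, the 1 leukocyte marker of 7 called there. The part of these markers in the values was not tested. In luminal Sca1-positive cells 0 of 9 members passed by limma, 0 with an unadjusted p under 0.05, where 0.777% of all genes were called. Differences there ran from -0.41 in Pmaip1 to 0.42 in Bcl2. In this fraction too 1 of 5 fibroblast markers was called lower, and Dcn averaged 8.52 in mutant and 11.53 in control.

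The mutant effects were also compared between fractions, with 0 of 9, 0 of 9 and 0 of 9 members called by limma. Of all genes 1.07% were called between the GFP-positive and GFP-negative basal fractions, 0.161% between the Sca1-positive and Sca1-negative luminal fractions and 1.03% between luminal Sca1-negative and basal GFP-positive cells, and 1, 0 and 3 members had an unadjusted p under 0.05. For Bcl2l11 the last of these differences was -1.58 ± 0.60, adjusted p = 0.292, so its mutant effect was not shown to be particular to basal cells.

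**Figure D3:**
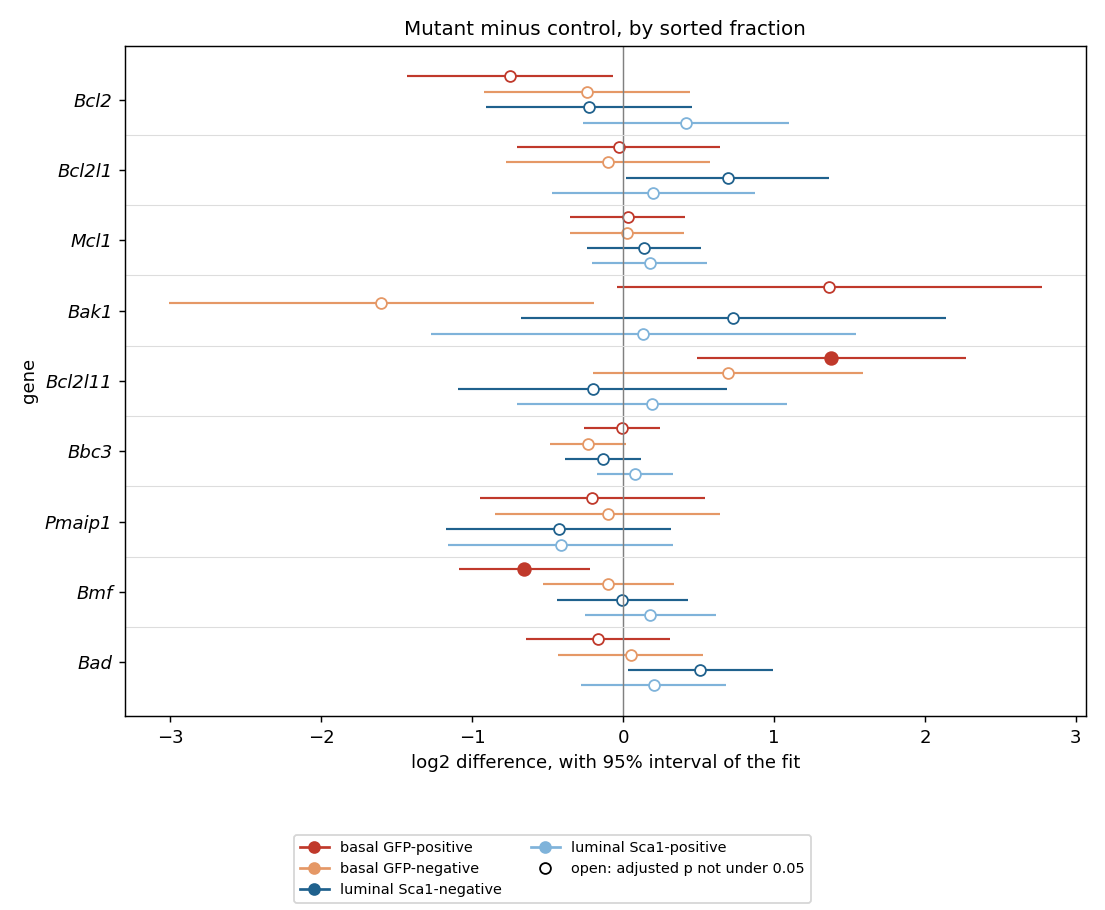
Log2 difference of mutant minus control cells (x axis) for each member (y axis) in the 4 sorted fractions, with the 95% interval of the fit; filled points had an adjusted p under 0.05. The filled points are Bcl2l11 at 1.38 and Bmf at -0.65, both in basal GFP-positive cells.

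Luminal and basal cells were compared within each genotype, using GFP-positive basal cells in mutant mice and GFP-negative ones in control mice. Mcl1 was higher in luminal Sca1-negative cells of both genotypes. In mutant mice it stood at 10.57, 10.41 and 10.53 in luminal Sca1-negative arrays, against 9.93, 9.87 and 9.44 in basal arrays (0.76 ± 0.18, adjusted p = 0.0110, 1.69-fold). In control mice it stood at 10.42, 10.15 and 10.53 in luminal Sca1-negative arrays, against 9.43, 9.46 and 9.78 in basal arrays (0.81 ± 0.18, adjusted p = 0.00624, 1.75-fold). The luminal arrays lay above the basal ones in each genotype. The control call was kept under all 14 alternatives run, and the mutant call was lost only without basal GFP-positive replicate 3 (0.61, adjusted p = 0.0785). In luminal Sca1-positive cells Mcl1 differed from basal cells by 0.24 in mutant and 0.25 in control mice (adjusted p = 0.549 and 0.446).

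Bcl2l1 was higher in both luminal fractions of mutant mice than in mutant basal GFP-positive cells. It stood at 7.51, 7.53 and 7.29 in luminal Sca1-negative arrays and 7.21, 7.61 and 6.67 in luminal Sca1-positive arrays, against 6.23, 5.99 and 5.44 in basal GFP-positive arrays. Neither luminal group overlapped the basal GFP-positive one. Mutant basal GFP-negative arrays, at 6.36, 6.64 and 7.39, were not part of this comparison and overlapped both luminal groups. The difference was 1.55 ± 0.32 for Sca1-negative cells (2.94-fold, adjusted p = 0.00363), kept under all 14 alternatives run. For Sca1-positive cells it was 1.28 ± 0.32 (2.42-fold, adjusted p = 0.0132). That call was lost without basal GFP-positive replicate 3 (0.0828), without luminal Sca1-positive replicate 2 (0.0830) and in a fit of the compared groups alone (0.0638). In control mice, against GFP-negative basal cells, the differences were -0.15 for Sca1-negative and 0.07 for Sca1-positive luminal cells (adjusted p = 0.867 and 0.935). Since the basal cells differ in GFP state, these values do not measure an effect of genotype.

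Bcl2 was lower in luminal Sca1-positive than in basal cells of control mice. It stood at 4.90, 5.88 and 4.81 in luminal Sca1-positive arrays, against 7.19, 7.05 and 6.48 in basal GFP-negative arrays, with no overlap. The difference was -1.71 ± 0.32, a ratio of 0.306 (adjusted p = 0.00119), kept under all 14 alternatives run. In mutant mice luminal Sca1-positive arrays had 5.93, 5.00 and 5.91, against 5.75, 6.15 and 6.42 in basal GFP-positive arrays, with overlap (-0.49 ± 0.32, adjusted p = 0.468). Mutant basal GFP-negative arrays, at 6.50, 7.03 and 6.48, were not part of this comparison and lay above all mutant luminal Sca1-positive arrays. Since the basal cells differ in GFP state, the values of mutant and control mice do not measure an effect of genotype. Luminal Sca1-negative cells differed from basal cells by 0.30 in mutant and -0.27 in control mice (adjusted p = 0.763 and 0.722).

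Bak1 was lower in control luminal Sca1-negative cells, at 6.66, 7.04 and 8.16, against 8.46, 11.67 and 8.37 in control basal GFP-negative cells (-2.21 ± 0.67, adjusted p = 0.0433). Without the basal array at 11.67, replicate 2, the difference was -1.12 (adjusted p = 0.209), and it also failed to pass without luminal Sca1-negative replicate 1 (0.154) or 2 (0.127). The call was also lost in a fit of the compared groups alone and with a replicate block. The 5 BH3-only genes passed in none of these 4 comparisons by limma. Bcl2l11 stood at 6.85, 6.24 and 6.50 in mutant luminal Sca1-positive arrays, against 8.03, 7.25 and 7.59 in basal GFP-positive arrays of the same genotype (-1.09 ± 0.42, adjusted p = 0.135). Pmaip1 stood at 4.61, 6.39 and 5.08 in control luminal Sca1-positive arrays, against 4.33, 4.50 and 4.50 in control basal GFP-negative arrays (0.91 ± 0.35, adjusted p = 0.108), and its luminal values were widely spread.

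Against basal cells, the members called were 2 of 9 in mutant luminal Sca1-negative cells (7.86% of all genes), 1 of 9 in mutant luminal Sca1-positive cells (9.72%), 2 of 9 in control luminal Sca1-negative cells (9.83%) and 1 of 9 in control luminal Sca1-positive cells (13.1%). The comparisons of each genotype share their basal arrays.

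**Figure D4:**
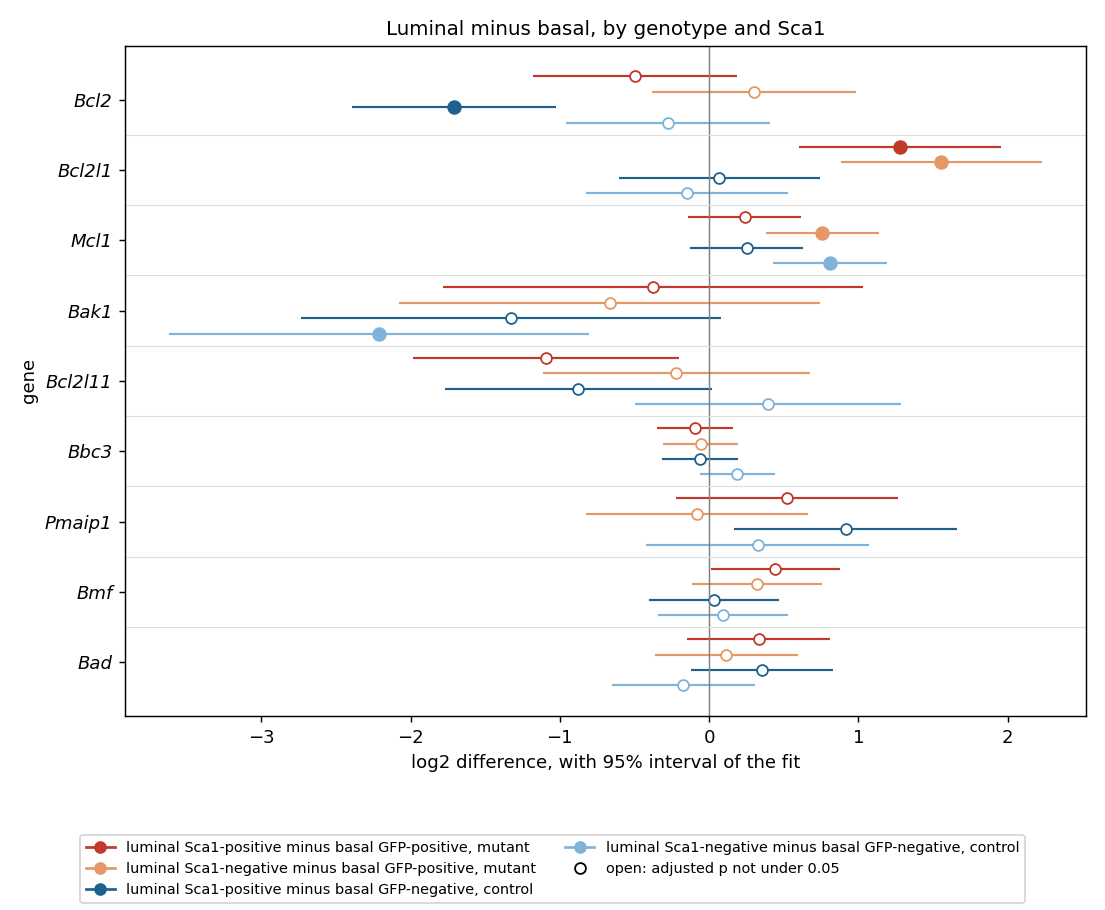
Log2 difference of luminal minus basal cells (x axis) for each member (y axis), by genotype and Sca1 fraction, with the 95% interval of the fit; filled points had an adjusted p under 0.05. Basal cells are GFP-positive in mutant and GFP-negative in control mice. Mcl1 is filled for luminal Sca1-negative cells of both genotypes, Bcl2l1 for both mutant luminal fractions, and Bcl2 and Bak1 once each in control mice.

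The luminal fractions were then compared with each other. Sca1-positive luminal cells are known to be rich in hormone receptor-positive cells, and Sca1-negative ones in progenitors. In control mice Bcl2 stood at 4.90, 5.88 and 4.81 in Sca1-positive arrays, against 6.99, 6.33 and 6.57 in Sca1-negative arrays (-1.43 ± 0.32, adjusted p = 0.0170). It was the only call, 1 of 9 members, where 3.69% of all genes were called. It was lost without Sca1-negative replicate 1 or Sca1-positive replicate 1 or 3 (adjusted p 0.0760 to 0.0954) and in a fit of the compared groups alone (0.141). In mutant mice 0 of 9 members passed by limma, 2 with an unadjusted p under 0.05, where 3.66% of all genes were called. Bcl2 stood there at 5.93, 5.00 and 5.91 in Sca1-positive arrays, against 6.23, 6.45 and 6.54 in Sca1-negative arrays, with no overlap (-0.79 ± 0.32, adjusted p = 0.280).

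Mcl1 and Bcl2l11 had lower values in Sca1-positive cells without passing in either genotype alone. Mcl1 stood at 10.25, 9.99 and 9.72 in mutant Sca1-positive arrays, against 10.57, 10.41 and 10.53 in mutant Sca1-negative arrays (-0.52 ± 0.18, adjusted p = 0.159). In control mice it stood at 9.90, 9.92 and 9.61 in Sca1-positive arrays, against 10.42, 10.15 and 10.53 in Sca1-negative arrays (-0.56 ± 0.18, adjusted p = 0.108). No Sca1-positive array reached a Sca1-negative one in the same genotype. Bcl2l11 stood at 6.85, 6.24 and 6.50 in mutant Sca1-positive arrays, against 7.57, 7.16 and 7.48 in mutant Sca1-negative arrays (-0.87 ± 0.42, adjusted p = 0.423). In control mice it stood at 6.31, 6.81 and 5.88 in Sca1-positive arrays, against 7.98, 7.62 and 7.21 in Sca1-negative arrays (-1.27 ± 0.42, adjusted p = 0.123). Its groups did not overlap either.

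Averaged over both genotypes, a comparison added after these values were seen, 3 of 9 members were called, all lower in Sca1-positive cells, where 6.8% of all genes were called and 3.07% were lower. Bcl2 differed by -1.11 ± 0.23 (a ratio of 0.462, adjusted p = 0.00428), Mcl1 by -0.54 ± 0.13 (0.688, adjusted p = 0.0125) and Bcl2l11 by -1.07 ± 0.30 (0.476, adjusted p = 0.0360). The 20 alternatives run reuse the arrays whose values prompted this comparison, so they do not test it independently. Bcl2 and Mcl1 kept their call under all 20. Bcl2l11 lost it on leaving out mutant luminal Sca1-positive replicate 2 or 3, control luminal Sca1-positive replicate 1 or 3, mutant luminal Sca1-negative replicate 1 or 3 or control luminal Sca1-negative replicate 1 or 2 (adjusted p 0.0671 to 0.0968).

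GFP-positive basal cells were compared with GFP-negative basal cells of the same genotype. By limma 0 of 9 members passed in mutant and 0 of 9 in control mice, where 2.51% and 1.25% of all genes were called, and 2 and 3 members had an unadjusted p under 0.05. Bcl2l1 stood at 6.23, 5.99 and 5.44 in mutant GFP-positive arrays, against 6.36, 6.64 and 7.39 in mutant GFP-negative arrays (-0.91 ± 0.32, adjusted p = 0.195). In control mice it stood at 5.73, 5.91 and 6.10 in GFP-positive arrays, against 7.26, 6.41 and 7.02 in GFP-negative arrays (-0.98 ± 0.32, adjusted p = 0.139). In each genotype all GFP-positive arrays lay below all GFP-negative ones. GFP marked Lgr5 in control cells, but Lgr5, the transgene or both in mutant cells. Lgr5 averaged 9.47 in control GFP-positive and 8.07 in control GFP-negative cells, but 6.30 and 7.34 in mutant ones. An average over genotypes thus joins unlike GFP comparisons. Averaged over both genotypes, again added after the values were seen, Bcl2l1 differed by -0.95 ± 0.23, a ratio of 0.519 (adjusted p = 0.0310), as 1 of 9 members called where 2.57% of all genes were. The call was lost on leaving out mutant basal GFP-positive replicate 2 or 3, control basal GFP-positive replicate 1, mutant basal GFP-negative replicate 3 or control basal GFP-negative replicate 1 or 3 (adjusted p 0.0557 to 0.0792) and with a fit of the compared groups alone (0.0988) and with array weights (0.0797). Bbc3 stood at 5.68, 5.61 and 5.38 in mutant GFP-positive arrays, against 5.14, 5.19 and 5.30 in mutant GFP-negative arrays, with no overlap (0.34 ± 0.12, adjusted p = 0.189).

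Of 12 further BCL2 family genes measured, 0 passed by limma in any of the 4 fractions between mutant and control. Between lineages 2 were higher and 0 lower in each mutant comparison, 2 higher and 2 lower in control luminal Sca1-negative cells, and 2 higher and 1 lower in control luminal Sca1-positive cells. Of all genes 7.86% and 9.72% were called in the mutant Sca1-negative and Sca1-positive comparisons, and 9.83% and 13.1% in the control ones. Bik, a BH3-only gene, was higher in luminal cells each time: by 1.49 and 1.56 in mutant Sca1-negative and Sca1-positive cells (adjusted p = 0.0112 and 0.00629), and by 1.44 and 2.11 in control ones (0.0126 and 0.000352). Bcl2l14 was higher in Sca1-positive luminal than in basal cells, by 1.59 in mutant and 2.27 in control mice (adjusted p = 9.55e-05 and 1.20e-06). Bok, an effector-like gene, was lower in control luminal cells, with differences of -0.83 in Sca1-negative and -0.88 in Sca1-positive cells (adjusted p = 0.00821 and 0.00379).

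Genes that act after or beside the family were read in mutant against control basal GFP-positive cells, where 12.6% of all genes were called, 4.74% higher and 7.81% lower. Of 18 apoptosome, caspase and inhibitor genes 2 rose and 0 fell: Cycs, encoding cytochrome c (1.63 ± 0.40, adjusted p = 0.0166), and the mitochondrial channel gene Vdac3 (1.45 ± 0.34, adjusted p = 0.0132). The list median was 0.43, against -0.10 for all genes. When the same mutant arrays were set against control basal GFP-negative cells, 0 of the 18 passed by limma, with a median of -0.10. In that comparison 3.22% of all genes were called. Of 12 p53 pathway genes 3 rose and 0 fell, Mdm2, the ubiquitin ligase of p53 (1.78 ± 0.31, adjusted p = 0.00205), Ei24 (1.22) and Perp (0.92), with a median of 0.60. Mdm2 was also higher than in mutant and in control GFP-negative basal cells (1.42, adjusted p = 0.0171, and 1.19, adjusted p = 0.0438), and its mutant effect differed between the basal fractions by 2.00 ± 0.44, adjusted p = 0.0338. Against control GFP-negative basal cells it was the only call, 1 of the 12 p53 pathway genes, and their median was 0.30. Of 11 death receptor genes 1 rose, the receptor gene Tnfrsf10b (1.53 ± 0.35, adjusted p = 0.0109). Of 10 STAT and NF-kB genes the cytokine gene Lif rose (2.84 ± 0.55, adjusted p = 0.00428) and Osmr and Stat5a fell (-0.89 and -0.88). Of 14 PI3K, FOXO and 14-3-3 genes 1 rose, the 14-3-3 gene Ywhag (0.78 ± 0.22, adjusted p = 0.0285), and of 6 genes of MCL1 turnover and dynein light chains 0 passed. Against control basal GFP-negative cells 0 of the 11 death receptor genes passed by limma. There 1 of the 10 STAT and NF-kB genes was higher and 1 lower. Of the 14 PI3K, FOXO and 14-3-3 genes 1 was higher, as was 1 of the 6 last named.

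In luminal Sca1-negative cells the mutant effect on these 6 lists held 1 call, Mlkl, the executor of necroptosis (1.21 ± 0.22, adjusted p = 0.00857). In luminal Sca1-positive and basal GFP-negative cells 0 genes of the 6 lists passed by limma. In luminal Sca1-negative against basal cells, where Mcl1 was higher, 7.86% of all genes were called in mutant and 9.83% in control mice. Of 10 STAT and NF-kB genes 3 were higher and 1 lower in each genotype, and of 18 apoptosome, caspase and inhibitor genes 1 was higher and 1 lower in each. Nfkb2 and Rela, which encode NF-kB subunits, were higher in mutant (1.04 and 0.97; adjusted p = 0.0118 and 0.0226) and in control mice (2.02 and 1.37; 1.90e-05 and 0.00134), as was Lif (2.58 in mutant and 5.71 in control, adjusted p = 0.00487 and 1.02e-06). Birc3, which encodes an inhibitor of apoptosis protein, was higher in the same cells (1.28 in mutant and 1.11 in control, adjusted p = 0.00493 and 0.0132). Socs3, a feedback inhibitor of STAT signalling, was lower (-1.94 in mutant and -2.48 in control, adjusted p = 0.000692 and 5.01e-05). Htra2, whose product antagonises inhibitor of apoptosis proteins, was also lower (-1.39 in mutant and -1.36 in control, adjusted p = 0.0209 and 0.0210). In luminal Sca1-positive against basal cells Mcl1 was not called. There 2 of the 10 STAT and NF-kB genes were higher and 1 lower in mutant and 3 higher and 1 lower in control mice. Of all genes 9.72% and 13.1% were called. The list's medians there were 0.70 and 0.67, against 0.55 and 0.09 in luminal Sca1-negative cells.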

How the data were processed

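The authors deposited log2 expression values per probe set for 24 arrays, a scale read from the values (2.59 to 13.5; array medians 4.39 to 4.55). Per the submitters' processing notes affy was used; background correction and normalization are not given in the sources used here. Of 34760 probe sets 21640 had 1 gene symbol, and 21553 of these matched RefSeq (GRCm38.p6) by Entrez identifier. The brightest probe set per gene was kept, which left 19937 genes.

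A single limma fit (limma 3.58.1, R 4.3.3) estimated a mean per group without a replicate block and left 16 degrees of freedom for the spread. It covered 13 pairs of groups, 3 differences of mutant effects and 2 averages over genotypes chosen after the data were seen. Tests were two-sided and adjusted by Benjamini-Hochberg over all genes in each comparison. The replicates of a group are pools from separate sortings, so p-values measure the spread between pools. Fractions of 1 genotype may share a pool, and the fit treats their arrays as independent. In simulated data with 19937 genes, made for mutant against control basal GFP-positive cells, 50 genes were changed at each fold. The fit recovered 32% of genes changed 1.5-fold, 62% at 2-fold and 80% at 4-fold. In the real comparison 2504 genes were called, and the adjustment depends on the share of changed genes. The rates therefore need not hold for it. Members and lists were chosen with earlier results of these data known. The genes named are the members, up to 4 called genes with the smallest p of each other list in a comparison, and the 3 genes most correlated with each of the 3 members of smallest F test p. Alternatives were quantile normalization, equal array medians, a filter on dim genes, a fit of the compared groups alone or without the control basal GFP-positive arrays, array weights, averaged probe sets, a replicate block and leaving out each array.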

Additional observations from a re-analysis of the deposited data

How the results depend on the processing

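Of members called between mutant and control basal GFP-positive cells, 2 by the fit as reported, 0 were called after quantile normalization, 1 with array medians set equal, 0 in a fit of the compared groups alone, 1 with the replicate block (Bmf at an adjusted p of 0.0504) and 0 to 2 with single arrays left out. Over all genes the 2504 calls there became 1100, 1334, 234 and 2350 under those settings, and 1034 to 3979 with arrays left out. Control luminal Sca1-negative against basal cells gave 2 members, 1 in the fit of the compared groups, 1 with the replicate block (Bak1 at 0.0533) and 1 to 2 with arrays left out; all genes called there numbered 1960, and 1045 in the fit of the compared groups. Mutant luminal Sca1-positive against basal cells gave 1, 0 in the fit of the compared groups, 2 with array weights (Bcl2l11 added, 0.0263) and 0 to 1 with arrays left out. Mutant luminal Sca1-negative against basal cells gave 2, and 1 to 2 with arrays left out, and control luminal Sca1-positive against basal cells 1, and 1 to 2. Control Sca1-positive against Sca1-negative luminal cells gave 1, 2 after quantile normalization (Mcl1 added, 0.0435), 0 in the fit of the compared groups and 0 to 1 with arrays left out, with 735 genes called in all against 311. The average over genotypes gave 1 for GFP, 0 in the fit of the compared groups, 0 with array weights and 0 to 1 with arrays left out, and 3 for Sca1, with 2 to 3. All genes called for GFP numbered 513, and 166 in the fit of the compared groups. A fit of the compared groups has fewer arrays to estimate the spread; for the other settings the cause was not tested. No called member changed sign, and the replicate block changed no other call. Glands were pooled per genotype in each sorting, so fractions of 1 genotype can share mice. The labels do not say whether a replicate number marks a sorting. The numbers were not taken to pair the samples, since in 0 of 13 comparisons did all 3 pairs correlate over 0.1 (r = -0.08 to 0.19). Yet 17 of 24 arrays correlated best with an array of their own number, a hint of pairing, since only 1 of the 3 arrays in each other group has that number. The 4 members that varied over the 8 groups were called under all 31 alternatives. Pmaip1 and Bmf lie near the background signal, which limits the differences that could be seen in them.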

Other observations

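The Bak1 value of 11.67 in control basal GFP-negative replicate 2 lay 3.21 above the higher of the other arrays in its group, and 7 of 19937 genes, Bak1 included, had a gap of that size on that array. On it 41 genes lay over 2 log2 units above both other arrays, against 50 on replicate 1 and 37 on replicate 3 of the same group.

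Genes with profiles most like those of 3 members were found by Pearson correlation over the 24 arrays, which share their 8 groups, so the values only describe. For Mcl1 they were Atp6v1b1, encoding a proton pump subunit (0.89), the chemokine gene Cxcl1 (0.89) and the nucleoside transporter gene Slc28a3 (0.88). For Bcl2 they were the ubiquitin ligase gene Fbxo32 (0.82), the transcription factor gene Sox10 (0.80) and Itprid1 (0.80). For Bcl2l1 they were Pyroxd1 (0.78), the kinase gene Oxsr1 (0.78) and the ubiquitin ligase gene Rnf14 (0.73). Among pairs of members, Bcl2 with Bcl2l11 had the highest correlation (0.50) and Bcl2l11 with Bmf the lowest (-0.53).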
